A study of Mus musculus with 10 samples.

Results

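The regions described here are 4000 stretches of accessible chromatin, away from known transcription start sites, that were called in E17.5 mouse epicardium and in none of the younger samples of the series. They were found in 9 ATAC-seq peak lists, whose intervals on chromosomes 1 to 19 were pooled and merged into 154886 regions. Of these, 126783 were distal, meaning more than 1 kb from any annotated start in the mm10 assembly (GENCODE M21). A distal region became an E17.5-only region when an interval of every one of the 3 E17.5 lists overlapped it by at least 1 bp and no interval of the 6 other lists did, which held for 3.15% of all distal regions. The same rule gave 5811 regions for E11.5 epicardium alone and 4211 for epicardium-derived cells (EPDCs) alone, and 26671 distal regions were called in all 9 lists. Since the calls chose the regions, their presence at E17.5 and absence elsewhere is a description of the choice and not a finding.

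Hearts came from C57BL/6J embryos carrying Wt1CreERT2/+ and Rosa26tdTomato, in which tamoxifen given by oral gavage at E9.5 switched on tdTomato in cells with active *Wt1*. All groups share this genotype and treatment, and cells in which *Wt1* was off at that time carry no label in any of them. Epicardial cells were sorted by flow cytometry as CD31-tdTomato+PDPN+ at E11.5 (3 samples of 6 pooled hearts) and at E17.5 (3 samples of 4 pooled hearts). EPDCs were sorted as CD31-tdTomato+PDPN- and comprised 1 library of E12.5 and 2 libraries of E13.5 hearts (4 to 13 hearts by the sample records for E13.5, where the methods of the study give a narrower range), with the 2 technical replicates of 1 of the latter held in 1 list and counted as 1 library. Samples of a group were separate pools of littermate hearts, and no sample of EPDCs at E17.5 and no epicardium between E11.5 and E17.5 was analysed here, so stage and time since labelling cannot be told apart.

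The epicardium is the mesothelial sheet on the surface of the heart. In mid-gestation its cells undergo epithelial-to-mesenchymal transition and invade the myocardium as EPDCs, which give rise to fibroblasts and mural cells, while late in gestation the remaining layer is a quieter epithelium. In ATAC-seq the Tn5 transposase cuts open chromatin, and distal peaks commonly mark enhancers, where transcription factors bind short sequence motifs. AP-1, a dimer of FOS and JUN family proteins, is a signal-responsive factor found at enhancers in many cell types.

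Windows of 13 regions are given: 10 show the AP-1 motif that the results turn on, in regions with a mean rank percentile (defined below) of 47.4 (*E2f2*) to 87.9 (*Slc23a4*), and 3 are strong regions in which no such motif was present. Each holds the strongest E17.5 summit and the 100 bases on either side of it, read 5′ to 3′ on the plus strand of GRCm38.p6 (the build of mm10, sequence from RefSeq) and named by the nearest protein-coding gene. Capitals mark exact matches, on either strand, to AP-1 (TGANTCA), NRF2 (TGACNNNGC), C/EBP (TTGCNNAA), TEAD (ACATTCC), KLF (GGGNGTGG), ZEB/SNAI (CAGGTG) or TBX20 (AGGTGTGA), and matches to different motifs can share bases. An AP-1 match shares bases with an NRF2 match in the Wdr11 window, with a ZEB/SNAI match in the Mef2d window and with a TBX20 match, itself overlapping ZEB/SNAI, in the E2f2 window.
Slc23a4 (chr6:34971703-34971903): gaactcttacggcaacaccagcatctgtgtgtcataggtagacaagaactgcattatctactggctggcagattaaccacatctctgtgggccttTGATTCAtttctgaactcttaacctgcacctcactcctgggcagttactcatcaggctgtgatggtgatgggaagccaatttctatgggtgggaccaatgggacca
Wdr11 (chr7:129847275-129847475): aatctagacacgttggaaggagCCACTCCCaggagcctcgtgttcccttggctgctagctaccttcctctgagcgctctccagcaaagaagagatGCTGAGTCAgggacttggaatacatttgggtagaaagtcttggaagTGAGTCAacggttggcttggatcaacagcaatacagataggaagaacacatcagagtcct
Rapgef4 (chr2:72016111-72016311): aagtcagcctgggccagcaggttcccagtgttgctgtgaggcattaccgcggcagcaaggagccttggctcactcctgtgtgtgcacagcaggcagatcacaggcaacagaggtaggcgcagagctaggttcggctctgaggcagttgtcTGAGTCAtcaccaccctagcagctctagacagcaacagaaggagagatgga
Ppard (chr17:28236714-28236914): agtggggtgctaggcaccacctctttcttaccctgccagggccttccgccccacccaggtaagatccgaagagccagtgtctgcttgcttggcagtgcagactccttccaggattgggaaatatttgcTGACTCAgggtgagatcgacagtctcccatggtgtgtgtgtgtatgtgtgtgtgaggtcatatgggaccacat
Klf4 (chr4:55732068-55732268): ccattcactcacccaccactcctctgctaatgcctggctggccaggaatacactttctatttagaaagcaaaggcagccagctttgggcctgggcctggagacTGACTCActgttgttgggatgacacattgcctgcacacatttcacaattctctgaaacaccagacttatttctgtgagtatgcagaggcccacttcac
Dusp1 (chr17:26533845-26534045): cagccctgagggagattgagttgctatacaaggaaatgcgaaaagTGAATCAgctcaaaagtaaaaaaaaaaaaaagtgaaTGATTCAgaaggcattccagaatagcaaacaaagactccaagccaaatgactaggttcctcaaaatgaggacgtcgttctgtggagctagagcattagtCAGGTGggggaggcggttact
Mafk (chr5:139794965-139795165): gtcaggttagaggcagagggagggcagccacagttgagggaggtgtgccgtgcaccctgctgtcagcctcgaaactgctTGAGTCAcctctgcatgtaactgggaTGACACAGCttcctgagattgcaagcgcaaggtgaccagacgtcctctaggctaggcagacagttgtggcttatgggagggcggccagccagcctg
E2f2 (chr4:136167810-136168010): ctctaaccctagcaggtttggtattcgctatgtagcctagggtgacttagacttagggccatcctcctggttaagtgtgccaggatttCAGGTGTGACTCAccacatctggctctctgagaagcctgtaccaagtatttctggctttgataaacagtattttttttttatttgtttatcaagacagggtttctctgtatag
Mef2d (chr3:88140213-88140413): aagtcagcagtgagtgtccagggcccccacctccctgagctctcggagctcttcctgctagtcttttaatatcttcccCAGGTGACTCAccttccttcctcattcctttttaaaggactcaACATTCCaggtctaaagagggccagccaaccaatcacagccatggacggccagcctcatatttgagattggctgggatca
Pdgfra (chr5:75185708-75185908): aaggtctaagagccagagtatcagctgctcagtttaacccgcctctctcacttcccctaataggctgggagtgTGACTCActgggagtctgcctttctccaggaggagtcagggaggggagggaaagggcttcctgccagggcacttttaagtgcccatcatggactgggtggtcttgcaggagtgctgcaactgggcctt
Mmp2 (chr8:92784211-92784411): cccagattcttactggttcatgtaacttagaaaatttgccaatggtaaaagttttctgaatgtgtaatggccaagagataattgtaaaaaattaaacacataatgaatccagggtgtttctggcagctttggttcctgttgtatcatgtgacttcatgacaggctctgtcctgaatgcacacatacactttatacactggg
Efemp1 (chr11:28993504-28993704): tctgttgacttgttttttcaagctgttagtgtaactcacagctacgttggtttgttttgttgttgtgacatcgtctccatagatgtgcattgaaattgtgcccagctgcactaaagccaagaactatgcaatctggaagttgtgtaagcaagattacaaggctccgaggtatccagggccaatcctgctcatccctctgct
Saa3 (chr7:46719727-46719927): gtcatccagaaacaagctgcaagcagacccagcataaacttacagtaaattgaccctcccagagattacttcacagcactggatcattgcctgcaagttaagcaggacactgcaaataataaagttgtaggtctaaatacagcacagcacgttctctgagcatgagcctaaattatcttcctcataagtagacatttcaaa
The first 10 windows hold an AP-1 match, and the Wdr11 and Dusp1 windows hold 2. In the window beside *Klf4* the match was centred 6 bp from the summit, beside *Ppard* 31 bp and beside *Rapgef4* 53 bp, and 1 of the 2 *Dusp1* matches lay about as far away. The last 3 windows, beside *Mmp2*, *Efemp1* and *Saa3*, hold none of the 7 motifs marked. The windows of *St6gal1* and *Rcn1*, also among the highest ranked, held no AP-1 match and are not shown.

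The E17.5 lists held 73606, 91550 and 81057 intervals on these chromosomes in replicates 1, 2 and 3. The number of fragments that background sequence carried per position, solved from the scores of the lists, was 2.07, 3.61 and 3.39 in the same libraries, 3.24 to 4.10 at E11.5 and 4.19 to 10.9 in EPDCs, and was lowest in E17.5 replicate 1. The lowest fragment count at a called summit was 9, 12 and 12 in the E17.5 libraries and 11 to 24 in the others. Promoters of all 8 epicardial marker genes, *Wt1*, *Upk3b* and *Tbx18* among them, carried a peak in all 9 libraries, EPDCs included. Calls at these 8 promoters thus do not separate the sorted populations. The rank percentiles of the 8 summed to 675 to 702 at E17.5, 681 to 704 at E11.5 and 599.8 to 650.1 in EPDCs. Single genes differed more, with *Upk3b* at 96.2 to 97.1, 98.0 to 98.9 and 19.7 to 69.9 in the same groups. *Lrrn4* went the other way, at 54.3 to 57.7, 67.3 to 78.4 and 79.2 to 89.7. Promoters of other cell types carried peaks too. Of the 6 endothelial markers, *Pecam1*, *Kdr* and *Tek* carried a peak in all 9 libraries and *Cdh5*, *Tie1* and *Emcn* in none, and the rank percentiles of the 6 summed to 205 to 208 at E17.5, 245 to 255.5 at E11.5 and 194 to 215 in EPDCs. Among blood and macrophage markers, *Csf1r* carried a peak in all libraries but E17.5 replicate 2, and *Ptprc*, *Spi1*, *Itgam* and *Adgre1* carried none in any library. All 5 mural markers carried a peak in every library, with sums of 293 to 357 at E17.5 below the 402 to 414 at E11.5 and the 408 to 423 in EPDCs. Of the 3 lymphatic markers 2 carried a peak in the epicardial libraries (sums of 161 to 171 at E17.5 and 161 to 175.1 at E11.5) and all 3 in EPDCs (205 to 219), and the 2 neural crest markers summed to 7.23 to 15.3 at E17.5, 6.74 to 9.19 at E11.5 and 0 to 36.4 in EPDCs. Of the 6 cardiomyocyte markers, *Tnnt2*, *Actn2* and *Nkx2-5* carried a peak in all 9 libraries, *Myh6* in none, and *Myl2* and *Ttn* in none at E17.5. At E17.5 the rank percentile was 54.8 to 62.0 for *Tnnt2*, 74.6 to 81.9 for *Actn2* and 4.83 to 27.9 for *Nkx2-5*. The 6 summed to 139 to 166 at E17.5, 226 to 273 at E11.5 and 194 to 232 in EPDCs. The 5 fibroblast promoters, of which *Postn* had no peak at E11.5, summed to 319 to 340 at E17.5, 276 to 295 at E11.5 and 326 to 382 in EPDCs, and the part that other cell types have in the regions below was not tested.

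The E17.5-only regions were mostly peaks of modest strength. The measure used is the rank percentile, the position of a peak among all peaks of its own library ordered by −log10 p, with 100 the strongest. The median E17.5-only region stood at a rank percentile of 27.9 in replicate 1, 44.5 in replicate 2 and 36.3 in replicate 3, where the other distal regions of these libraries stood at 44.1, 43.2 and 43.3. At the median summit 21, 45 and 35 fragments were piled up. Averaged over the 3 libraries, the rank percentile of a region had a median of 35.4 and lay between 10.4 and 72.3 for the central 90% of regions. A mean above 50 was reached by 1045 regions (26.1%), above 75 by 145 and above 90 by 2.

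Libraries ranked the regions alike, but replicate 1 ranked them lower than the others did. The SD of a region's rank percentile over the 3 libraries had a median of 8.83, and across regions Pearson's r of pairs of libraries was 0.787 to 0.862 over 4000 regions that share the same lists. Replicate 1 gave the lowest of the 3 percentiles for 66.1% of the regions, and replicate 2 the highest for 2759. A −log10 q of at least 5 in all 3 libraries was met by 3137 regions (78.4%) and in none of them by 42. Relative to the background of its own library, the median region carried 11.1 times as many fragments at the summit. The lists give no signal at a region where no peak was called, so these values do not measure how closed the regions were at E11.5 or in EPDCs.

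At the edge of the rule, the regions nearest to being missed lay beside *Gas7*, *Spata18*, *Tnnt1*, *Rnf224* and *Atp2a3*, with a lowest −log10 q over the E17.5 libraries of 2.00 to 2.04, where the lists begin at 2. Just outside were regions beside *Gulp1*, *Cnnm2*, *Myc*, *Ext2* and *Zfp521*, each called by all 3 E17.5 libraries and by 1 E11.5 library at a −log10 q of 2.00 to 2.01. In all, 1472 distal regions were called by the 3 E17.5 libraries and exactly 1 other. A further 3047 were called by exactly 2 E17.5 libraries and no other, of which 2422 were missed by replicate 1, 112 by replicate 2 and 513 by replicate 3.

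Whether the choice carries over to a library that took no part in it was described by leaving out each library in turn. Of the 6422 regions chosen without E17.5 replicate 1, this library called 62.3%, and for replicates 2 and 3 the shares were 97.3% of 4112 and 88.6% of 4513. For comparison, among all distal regions called by the other E17.5 libraries the left-out library called 84.2%, 98.3% and 94.6%. When an E11.5 library was left out of the choice, it called 4.67%, 9.81% and 8.11% of the regions, against 80.8% to 83.7% of all distal regions called by the 3 E17.5 libraries. A left-out EPDC library called 0.498% and 0.621% for E12.5 and for E13.5 replicate 1, and 9.97% for E13.5 replicate 2, the library with the highest background, against 68.2%, 69.2% and 78.2% of all distal regions called at E17.5. Chosen on the epicardial libraries alone, 5986 regions separated E17.5 from E11.5. Of these, 4000 were called in no EPDC library and 768 in all 3, and the individual EPDC libraries called 13.7% (E12.5), 24.96% and 32.4% (E13.5) of them.

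E17.5-only regions lay nearer to genes than the other sets of regions measured here. The median distance to the nearest protein-coding start was 18.8 kb, against 26.8 kb for all distal regions, 38.6 kb for E11.5-only, 36.6 kb for EPDC-only and 22.9 kb for regions called in all 9 libraries. Within 10 kb of a start lay 32.6% of them (25.6% of all distal regions), and beyond 100 kb 14.5% (20.6%). Their summits fell in introns for 56.8%, in exons for 5.6% and between genes for 37.6%, where all distal regions had 52.4%, 4.71% and 42.9%. The median width was 479 bp, and the GC content of the sequence within 100 bp of the summit had a median of 48.8%, the same as over all distal regions. They were spread over all 19 autosomes. Another region of the same set lay within 10 kb of 12.2% of them, of 10.1% of the 5811 E11.5-only, 14.6% of the 4211 EPDC-only and 42.3% of the 26671 regions called in all 9 libraries, and sets of more regions have more neighbours by number alone. The windows of 100 kb with the most E17.5-only regions were one around *Ets2* (chr16:95700001-95800000) and one around *Arid4b*, *Ggps1* and *Tbce* (chr13:14000001-14100000), in each of which 6 of 14 distal regions were E17.5-only and none was E11.5-only.

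The 10 highest-ranked E17.5-only regions each carried many fragments in every E17.5 library. The strongest, 1.56 kb upstream of *Fam13b* on chromosome 18, had a mean rank percentile of 91.3 with 195, 378 and 333 fragments in replicates 1, 2 and 3. In an intron 3.13 kb upstream of the nearest *St6gal1* start (chr16:23266085-23266908), a gene for a sialyltransferase, 155, 330 and 280 fragments gave a mean of 90.1. These were the only 2 regions above 90. A region 43.1 kb upstream of *Mmp2* (chr8:92783926-92784472), which encodes a matrix metalloproteinase that degrades basement membrane collagen, carried 120, 184 and 173 fragments and a mean percentile of 88.7. Beside *Inhbb*, coding for an activin subunit, a region 130 kb from the start (chr1:119292062-119292678) stood at 88.4 with 117, 210 and 163 fragments. The next were an intronic region near *Slc23a4* (chr6:34971427-34972225; 87, 191 and 185 fragments) and one upstream of *Rcn1* (chr2:105408394-105409238; 101, 178 and 159 fragments), a calcium-binding protein of the endoplasmic reticulum. The nearest coding start to the next one (mean percentile 87.5) was that of *Wdr11*, 218 kb away. The other 3 lay beside *Nat9* (87.4), *Rapgef4* (87.3), a cAMP-activated exchange factor for RAP GTPases, and *Rgs8* (87.1), a regulator of G protein signalling. Replicate 1 gave the fewest fragments at all 10, and the lowest percentile of any of them in any library was 83.3.

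**Figure D1:**
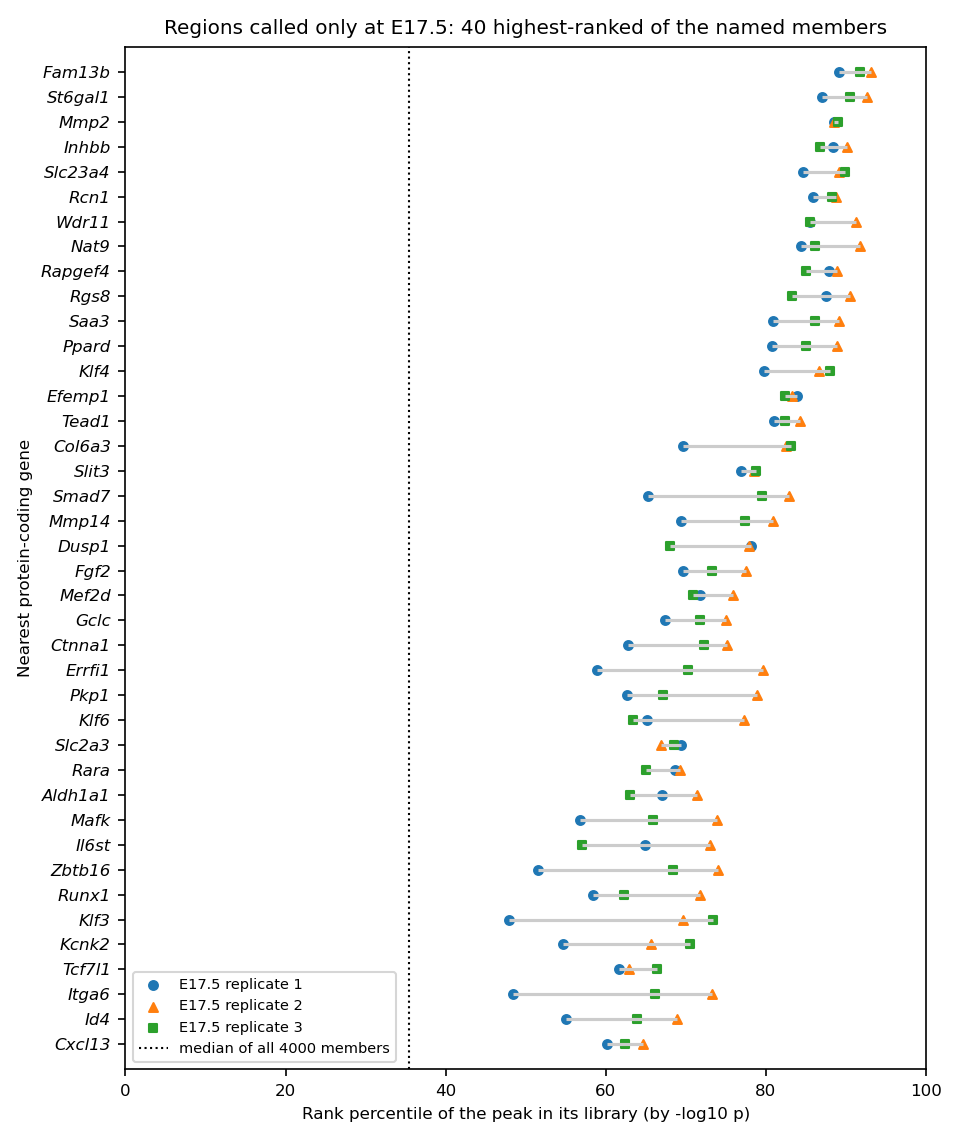
Rank percentile (x axis, by −log10 p within each library) of the 40 highest-ranked E17.5-only regions among those named by rule, each labelled by its nearest protein-coding gene. Points are the 3 E17.5 libraries, grey lines join them, and the dotted line is the median of the mean percentile over all 4000 regions (35.4), above which every point lies.

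Counting each region for the nearest protein-coding start within 200 kb, 3750 of the 4000 were assigned to 2733 genes, of which 2036 had 1 region and 697 had 2 or more. *Tmem108* had the most, with 8 of its 65 distal regions E17.5-only. *Thsd4*, a protein of extracellular microfibrils, had 7 of 79, *Mast4* 7 of 83 and *Slit3*, a secreted ligand of ROBO receptors, 7 of 104. Those with 6 were *Ets2*, *Arid1b*, *Pde4b*, *Nav2*, *Lpp*, *Cadm1*, *Slc38a2* and *Plce1*. As a share of the distal regions of a gene, *Ets2*, a signal-responsive ETS factor (22.2% of 27 regions), and *Slc38a2*, an amino acid transporter (20% of 30), stood above *Slit3* (6.73%), with 3.29% over all genes. Beside *Ets2* there was 1 E11.5-only region, and beside *Slc38a2* none.

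Gene lists for pathways of the epicardium were then read for E17.5-only regions next to their members, beside the 3.29% of distal regions over all genes. The share was above this for genes of the glucocorticoid response and the circadian clock (19 of 276 distal regions, 6.88%), for NRF2 and antioxidant genes (9 of 142, 6.34%) and for ion, water and solute transport (18 of 332, 5.42%). It lay close to the background for collagen and matrix genes (28 of 829, 3.38%), adhesion genes (15 of 449, 3.34%), AP-1 factor genes (7 of 210, 3.33%) and mesothelial identity genes (14 of 434, 3.23%). Between these lay Kruppel-like factors (10 of 236, 4.24%), complement and innate defence (10 of 252, 3.97%), C/EBP and lipid handling (6 of 154, 3.90%), TGF-beta and BMP (27 of 754, 3.58%) and Wnt (21 of 605, 3.47%). Lists below it were cell cycle (6 of 222, 2.70%), retinoic acid (8 of 298, 2.68%) and NFI genes (3 of 165, 1.82%), growth factors and receptors (28 of 1083, 2.59%), muscle and pericyte genes (7 of 333, 2.10%) and cardiac and epicardial transcription factors (24 of 1335, 1.798%). Next to fetal timing genes, such as the *Lin28* and *Igf2bp* families, none of 232 distal regions was E17.5-only and 16 (6.90%) were E11.5-only, where E11.5-only regions made up 4.34% over all genes. Next to interferon and antigen presentation genes none of 64 was. The order depended on the distance allowed. With starts within 50 kb only, the background was 3.57%, and the shares were 6.56% for NRF2 genes, 6.12% for transport, 4.95% for the clock and glucocorticoid list (9 of 182), 4.80% for C/EBP and lipid handling, 4.76% for mesothelial genes (13 of 273), 4.44% for adhesion, 4.43% for Wnt, 3.18% for TGF-beta and BMP and 3.06% for Kruppel-like factors (3 of 98). The mesothelial and adhesion lists thus lay above the background at this distance, and the Kruppel-like and TGF-beta lists below it.

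Among genes of the mesothelial layer, the strongest E17.5-only region lay 78.0 kb from *Efemp1*, a fibulin of the matrix, with 78, 117 and 106 fragments and a mean percentile of 83.2. Regions beside *Aldh1a1*, which makes retinoic acid (67.2; 44, 77 and 54 fragments), and *Bnc1*, the mesothelial factor basonuclin 1 (62.0; 71, 141 and 93 fragments), followed. Of the adhesion genes, *Ctnna1*, for alpha-catenin of adherens junctions, stood highest at 70.1, before *Pkp1*, a desmosomal plakophilin (69.6; 46, 124 and 74 fragments), and the laminin receptor subunit *Itga6* (62.6). For *Itga6* the libraries were far apart, at 48.4, 73.3 and 66.2.

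Stress and hormone response genes were represented at several levels. Among antioxidant genes *Gclc*, which makes the limiting subunit of glutathione synthesis, stood at 71.4 (61, 117 and 100 fragments), before the mitochondrial superoxide dismutase *Sod2* (45.7) and malic enzyme *Me1* (38.8). Neither of the *Gclc* and *Sod2* windows held an NRF2 match. Beside the small MAF factor *Mafk*, a dimer partner of NRF2, 127, 285 and 229 fragments gave a percentile of only 65.5, and its window, shown above, held an AP-1 and an NRF2 match. The stress-induced factor *Atf3* stood at 54.7 and the repressor *Bach2* at 44.3. *Dusp1*, a phosphatase that switches off MAP kinases and is induced by glucocorticoids, had a region 25.5 kb upstream (chr17:26533766-26534316) with 134, 222 and 159 fragments and a mean of 74.7. *Errfi1*, a feedback inhibitor of EGF receptors, stood at 69.6 and *Zbtb16*, which had 4 E17.5-only regions, at 64.7.

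Metabolic and defence genes held some of the strongest regions of any list. In an intron of *Ppard* (chr17:28236437-28237063), a fatty acid-sensing nuclear receptor, 125, 276 and 217 fragments gave a mean percentile of 84.9. The fatty acid transporter *Cd36* stood at 48.5 and the mitochondrial coactivator *Ppargc1a* at 39.5. Upstream of *Saa3*, for an acute-phase serum amyloid protein (chr7:46719475-46720390), 95, 222 and 173 fragments gave 85.4, although no library of either stage had a peak at the *Saa3* promoter. *Il6st*, the signalling chain of IL-6 family receptors, stood at 65.0 and the chemokine gene *Cxcl13* at 62.4. Among transporters the glucose transporter *Slc2a3* stood at 68.3, the potassium channel *Kcnk2* at 63.6 and the glutamate transporter *Slc1a3* at 62.4.

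Of the Kruppel-like factors, *Klf4* had the strongest, a region 199.8 kb upstream (chr4:55731951-55732485; 73, 160 and 159 fragments; mean 84.8), 1 of 4 assigned to it. *Klf6* stood at 68.6 and *Klf3* at 63.7. *Tead1*, the DNA-binding partner of YAP, had a region 2.81 kb from its start (chr7:112688552-112689233) at 82.5 with 103, 200 and 173 fragments, and *Mef2d* 1 at 72.9 with 171, 308 and 264. *Tead1* and *Mef2d* belong to the list of cardiac and epicardial factors, whose share of E17.5-only regions was below the background, and *Runx1* (64.1) came after them. The 3 NFI genes with a region had means of 46.0 (*Nfia*), 40.1 (*Nfib*) and 30.6 (*Nfix*).

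Matrix and signalling genes had many distal regions and were among the lists with the most E17.5-only regions, at shares near or below the background. Of the matrix genes, *Col6a3* (chr1:90698361-90699133; 56, 143 and 130 fragments; 78.5) and *Mmp14*, a membrane-bound activator of MMP2 (105, 232 and 193 fragments; 75.9), came after *Mmp2*. In the TGF-beta and BMP list the inhibitory *Smad7* stood at 75.9, *Id4* at 62.6 and the ligand *Bmp7* at 54.8. Wnt genes were led by the repressor *Tcf7l1* (63.6), *Wnt4* (61.6, 4 regions) and *Wnt9a* (56.8). Growth factor genes were led by *Slit3*, whose strongest of 7 regions carried 64, 113 and 104 fragments (78.1), *Fgf2* (73.5; 47, 98 and 74) and the PDGF receptor *Pdgfra* (60.9; 36, 84 and 79). Of the retinoic acid receptors, *Rara* had 1 region (67.7) and *Rxra* had 3, the strongest at 45.9. Cell cycle genes were led by *Ccnd1* (60.6), *E2f2* (47.4) and *E2f1* (35.4), and muscle genes by *Smtn* (59.0), *Tpm1* (39.6) and the cardiac troponin gene *Tnnt2* (18.7), the lowest of all regions named from the lists, with 24, 47 and 39 fragments.

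The rule did not use promoters, so the rank of promoter peaks gives an independent readout of the genes beside E17.5-only regions. For 2531 of these genes a peak lay within 1 kb of a start in at least 1 library. In 284 of them (11.2%) every E17.5 library ranked the promoter above every E11.5 library, where the share was 10.8% over all 15767 genes with such a peak. In 719 (28.4%) every E17.5 library ranked it below, where 27.9% of all genes did. Against EPDCs 441 were higher (17.4%, with 17.3% over all genes) and 608 lower (24.0%, with 22.4%). Hence the promoters of genes beside E17.5-only regions differed between the stages about as often as those of any gene. Of the 25 genes with 5 or more regions, 2 were higher and 7 lower, and of genes beside E11.5-only regions 290 were higher (9.65%) and 1037 lower (34.5%). With equal numbers of top intervals taken from every list, which alters the scale of the percentile, the direction of the split turned, with 669 higher (26.7%, against 25.4% over all genes) and 374 lower (14.9%, against 15.4%).

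Single promoters ranked far apart between the stages, in both directions. The 10 largest differences among genes beside an E17.5-only region had no overlap of the libraries, and for each the two-sided exact permutation p of 0.1 (n = 3 per stage, 0.258 after Benjamini-Hochberg adjustment over all 15767 promoters) is the smallest that 3 against 3 libraries can give, so none passed 0.05. *Padi3*, a peptidylarginine deiminase, had a promoter percentile of 90.1, 89.7 and 87.8 at E17.5 and no promoter peak in any E11.5 or EPDC library. The *Anxa8* promoter, of an annexin, stood at 68.7, 67.9 and 67.5 and likewise had no peak in the 6 other libraries. For the adhesion receptor genes *Adgrd1* and *Adgrf3* the means were 88.0 ± 3.30 (SD, n = 3) against 8.31 ± 8.19 at E11.5 and 75.9 ± 1.78 against no peak, and both had peaks in the E13.5 EPDC libraries (57.3 and 57.1 for *Adgrd1*, 32.9 and 46.7 for *Adgrf3*). *Rnase10* stood at 71.1 ± 2.15 at E17.5 without a peak at E11.5, yet EPDCs reached 59.9, 72.8 and 79.4.

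In the other direction, the promoter of *Tekt3* had 0.799 ± 1.38 at E17.5 against 74.5 ± 2.58 at E11.5 (SD, n = 3). *B3gat1* (65.0 ± 6.49 at E11.5), the iodide transporter gene *Slc5a5* (64.9 ± 1.36) and the urea cycle gene *Cps1* (64.4 ± 10.2) had no promoter peak in any E17.5 library. Among the genes with the most E17.5-only regions, promoter means at E17.5 and E11.5 were 96.0 and 96.0 for *Tmem108*, 93.0 and 94.7 for *Slit3*, 90.5 and 91.5 for *Ets2* and 76.3 and 70.03 for *Thsd4*, with overlapping libraries. Of the 12 such genes 1 was higher and 2 were lower without overlap (exact permutation p = 0.1 each, n = 3 per stage), where 10.8% and 27.9% of all genes were. The promoters of *Mast4* (98.5 against 99.8) and *Lpp* (88.8 against 93.1) ranked lower at E17.5, and that of *Plce1* (76.2 against 71.1) higher. Among the differences of all genes tested these lay at percentiles 40.9, 22.6 and 91.8, so *Mast4* and *Lpp* are not set apart from genes at large. Promoters of the genes named from the lists went both ways, and more ranked lower than higher without overlap, as over all genes. The largest differences upward were at *Col6a3* (43.7 ± 6.69 against 2.91 ± 4.10) and *Fgf2* (84.4 ± 3.66 against 69.3 ± 5.75). Those downward were largest at *Tnnt2* (58.6 ± 3.59 against 85.2 ± 2.18) and *Mmp14* (55.2 ± 8.66 against 74.7 ± 1.90). All are E17.5 against E11.5 without overlap (SD, n = 3, exact permutation p = 0.1 each). In EPDCs the *Col6a3* promoter stood at 64.0, 79.8 and 80.1.

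**Figure D2:**
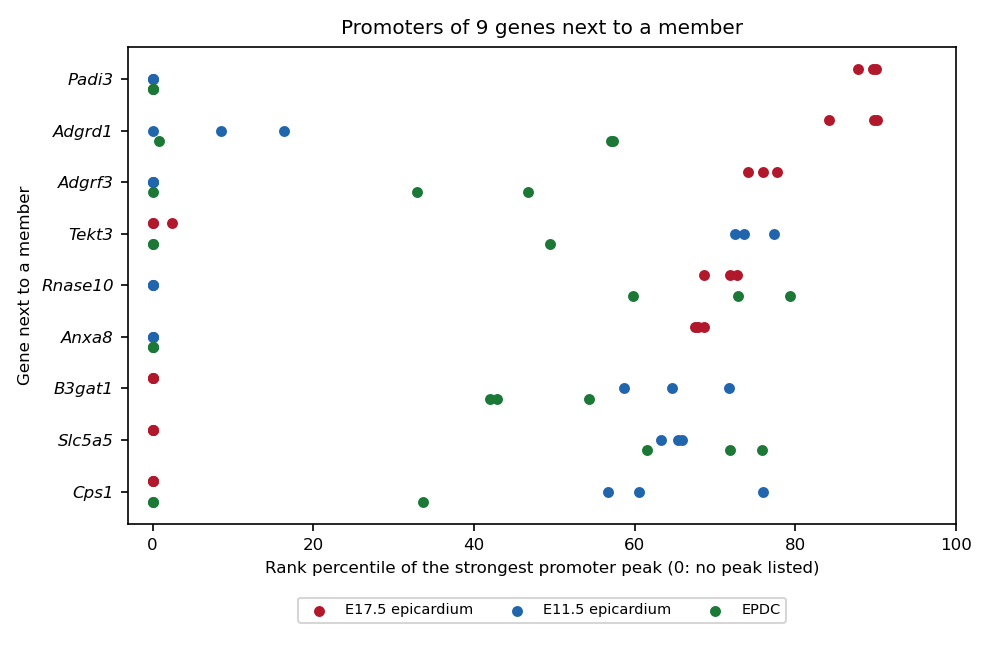
Rank percentile (x axis) of the strongest promoter peak in each of the 9 libraries for 9 of the 10 genes beside an E17.5-only region whose promoters differed most between E17.5 and E11.5, with 0 where no peak was listed. The *Padi3* and *Anxa8* promoters have a peak in the 3 E17.5 libraries alone, and at *B3gat1*, *Slc5a5* and *Cps1* all 3 E17.5 libraries are at 0.

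Regions called in all 9 libraries near an E17.5-only region were read in the same way. Within 25 kb there were 4658, of which 699 (15%) ranked higher in every E17.5 than in every E11.5 library, against 11.7% of all 26671 such regions, and 2022 (43.4%) ranked lower, against 48.8%. The median difference was −5.75 percentile points near E17.5-only regions and −8.20 over all. With equal numbers of top intervals the shares were 25.6% higher (21.2% over all) and 30.5% lower (34.9%). Ranked by fold enrichment instead, the order of the shares turned, with 13.8% higher near E17.5-only regions against 14% over all and 39.8% lower against 37.6%.

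Sequence motifs were then searched within 100 bp on either side of the strongest E17.5 summit, beside the same search in the other sets of regions. AP-1 stood out, with a match in 1248 E17.5-only regions (31.2%) against 18.1% of all distal regions, 15.8% of E11.5-only, 8.57% of EPDC-only and 19.6% of those called in all 9 libraries. In 172 regions there were 2 or more matches and in 1 region 6. ZEB/SNAI, the E-box bound by EMT repressors, was found in 18.4% (9.70% of all distal regions), C/EBP in 13.53% (8.93%), NRF2 in 12.7% (10.02%) and KLF in 12.4% (7.70%). The TBX20 motif was rare, at 1.75% against 0.806%, as was that of the glucocorticoid receptor, at 0.625% against 0.408%. Over whole regions, with a median width of 479 bp against 542 bp for all distal regions, these differences shrank. The part of width was not tested, and the NRF2 difference turned over whole regions (22.7% against 23.4% of all distal regions). There C/EBP was found in 26.9% against 24.2%, KLF in 21.8% against 19.3%, ZEB/SNAI in 36.9% against 28.5%, TBX20 in 3.13% against 2.56%, the glucocorticoid receptor motif in 1.30% against 1.26%, and AP-1 in 41.2% against 29.3%.

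Other motifs were less frequent in E17.5-only regions than in distal regions at large. The MEIS motif (TGACAG) was present in 15.95% against 21.2%, the E-box CAGCTG in 15.8% against 20.2% and the motif of CTCF, the factor that bounds chromatin domains, in 0.325% against 1.76%. The sequence AGATAA, read by GATA factors, was found in 16.98% of E17.5-only regions, 18.5% of all distal, 24.9% of E11.5-only and 17.2% of EPDC-only regions. TEAD was found in 7.93% of E17.5-only regions, 8.51% of all distal and 12.2% of E11.5-only regions, but in fewer of the EPDC-only regions (5.65%). The motif of WT1 and EGR factors (GCGNGGGNG) occurred in 1.30% of E17.5-only regions, 1.92% of all distal and 3.24% of those called in all 9 libraries. None of the 6 motifs AP-1, NRF2, C/EBP, TEAD, NFI and glucocorticoid receptor was found in 46.9% of E17.5-only regions and in 60.3% of all distal regions. These shares describe sets that the calls chose and were not tested, and an exact match is not a bound site.

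**Figure D3:**
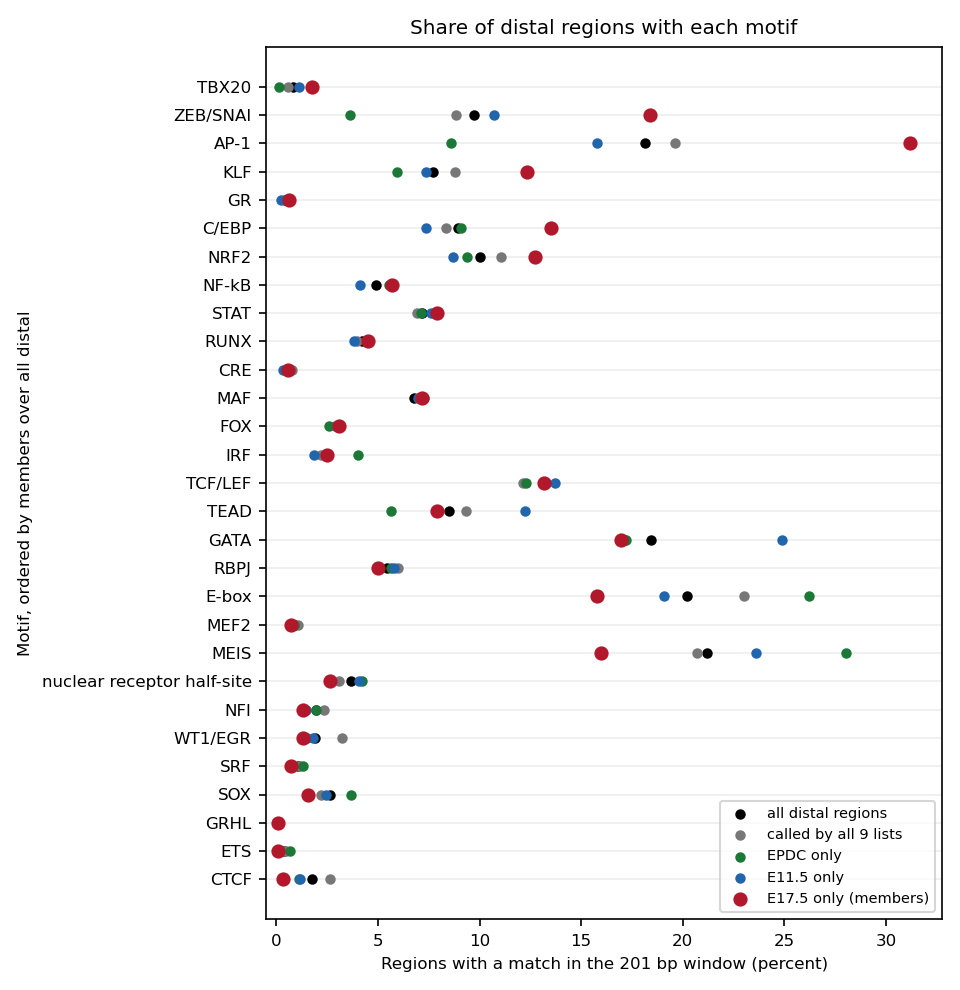
Share of regions (x axis, percent) with a match within 100 bp of the summit to each of 29 motifs, in E17.5-only regions and 4 other sets of distal regions. AP-1 lies at 31.2% for E17.5-only regions and below 20% for the other sets, while MEIS, the E-box and CTCF lie lower in E17.5-only regions than in all others.

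AP-1 matches were centred on the summit. Of the 1445 matches in E17.5-only regions, 43.9% lay within 25 bp of it, against 38.5% in regions called in all 9 libraries and 26.2% of all positions of the window. In the 20 bp bins next to the summit there were 6.00 and 6.55 matches per 100 E17.5-only regions, 3.36 and 3.37 per 100 regions called in all 9 libraries, and 1.16 and 1.07 per 100 EPDC-only regions. C/EBP matches were more spread out, and GATA matches peaked at the summit of E11.5-only regions.

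**Figure D4:**
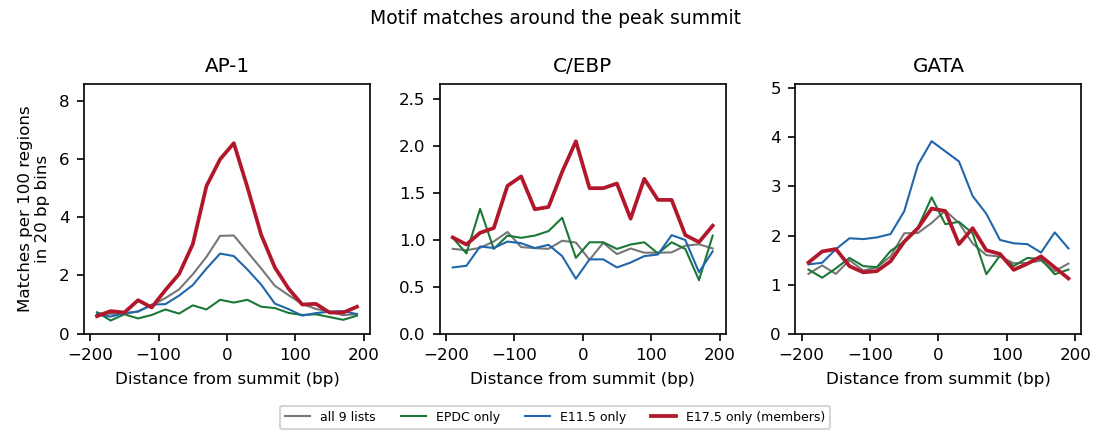
Motif matches per 100 regions (y axis, 20 bp bins) by distance from the summit (x axis, bp) for AP-1, C/EBP and GATA in 4 sets of distal regions. The AP-1 curve of E17.5-only regions reaches 6.55 at the summit, above the 3.37 of regions called in all 9 libraries, and the GATA curve is highest for E11.5-only regions.

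The stronger the region, the more often AP-1 was found. In 5 groups of 800 E17.5-only regions, ordered from the weakest to the strongest by mean rank percentile, the share was 21%, 27.4%, 30.4%, 35.4% and 41.9%. Other distal regions called by all 3 E17.5 libraries showed the same order at a lower level, with 11.9%, 15.8%, 19.3%, 20.4% and 27.5% in the same ranges of percentile. The median percentile was 40.7 for E17.5-only regions with a match and 33.2 for those without. KLF was found in 9.0% of the weakest and 16.3% of the strongest group, and C/EBP did not follow this order, at 15.9% and 13.3%. Regions without an AP-1 match had ZEB/SNAI in 17.8%, C/EBP in 14.1% and KLF in 12.9%, against 9.47%, 9.01% and 7.87% of all distal regions without one.

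The same motifs were then compared between libraries after removal of the E17.5-only regions, which leaves peaks that the choice did not fix. AP-1 was found in 22.8%, 24.9% and 23.4% of the distal peaks of the 3 E17.5 libraries, in 17.1%, 18.1% and 16.98% at E11.5 and in 15.01%, 14.3% and 14.3% in EPDCs. All E17.5 libraries were above the 6 others, with a mean of 23.7% ± 1.06 (SD, n = 3) and a difference of 7.73 percentage points. Adjusted over the 29 motifs by Benjamini-Hochberg, the two-sided exact permutation p for AP-1 was 0.0493. Of the 29 motifs 14 (48.3%) had an adjusted p of 0.0493, all of them without overlap between E17.5 and the 6 other libraries, and 17 had an unadjusted p under 0.05. Leaving out any 1 library left none of the 14 past the adjusted threshold, with 7 to 13 motifs at an unadjusted p under 0.05, although the AP-1 difference stayed between 7.15 and 8.19 points.

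Of these 14, 9 were more frequent at E17.5, among them the ones that marked E17.5-only regions. ZEB/SNAI was present in 11.6% ± 0.450 of distal peaks at E17.5, 9.96% ± 0.129 at E11.5 and 6.69% ± 0.286 in EPDCs (SD, n = 3 each). The means were 11.3%, 9.75% and 9.97% for NRF2, 9.38%, 8.21% and 8.43% for C/EBP, 8.69%, 7.92% and 7.39% for KLF, and 0.920%, 0.795% and 0.503% for TBX20. The others above were NF-kB, FOX and the glucocorticoid receptor. Less frequent at E17.5 were MEIS (19.3%, 20.7% and 22.6%), SOX, RBPJ, NFI and the nuclear receptor half-site. GATA (17.1%, 18.95% and 17.8%; adjusted p = 0.0609 by the same exact test) and TEAD (8.88%, 9.45% and 8.11%; adjusted p = 0.893) overlapped between E17.5 and the other libraries. Against the 3 E11.5 libraries alone 14 motifs were above and 8 below without overlap, and none could pass, since the smallest adjusted exact permutation p was 0.132. Mean GC content of the windows was 49.8% to 49.97% at E17.5, 49.5% at E11.5 and 48.9% to 49.9% in EPDCs, and its part in the shares was not tested.

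**Figure D5:**
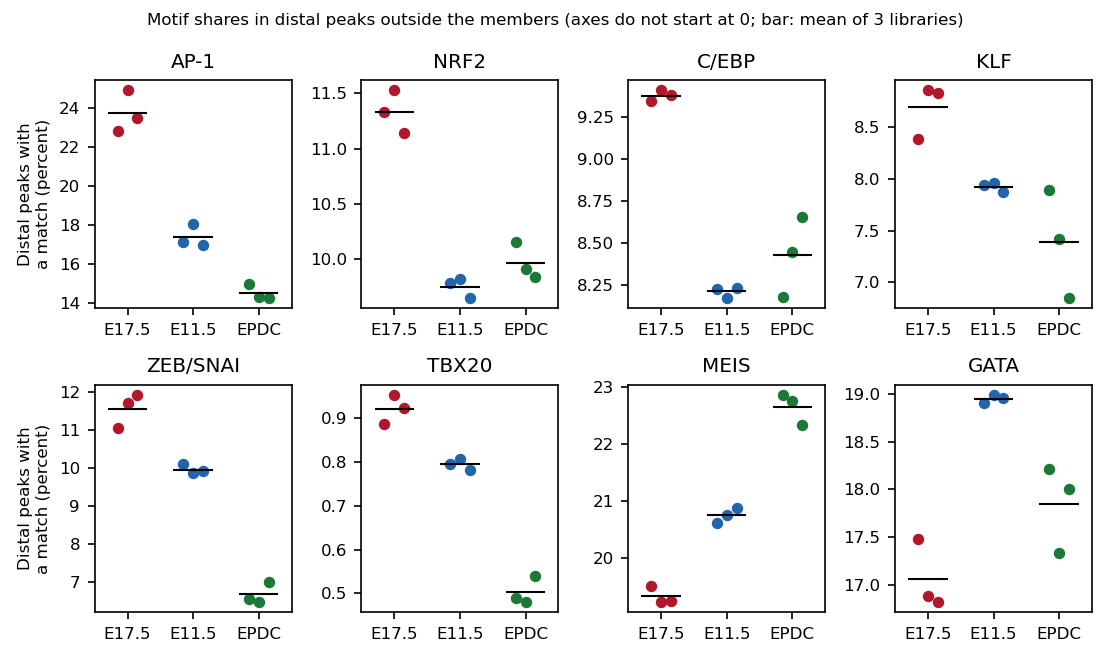
Share of distal peaks (y axis, percent, axes not starting at 0) with a match to 8 motifs in each of the 9 libraries after removal of the E17.5-only regions. Points are libraries and bars the means of 3. The 3 E17.5 libraries lie above all others for AP-1, NRF2, C/EBP, KLF, ZEB/SNAI and TBX20 and below them for MEIS, while GATA overlaps with EPDCs.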

How the data were processed

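Bulk ATAC-seq peak lists of 9 libraries were used, 3 each of E17.5 epicardium, E11.5 epicardium and EPDCs. The authors processed the paired reads with the nf-core atacseq pipeline on mm10, removed duplicate, multimapped, blacklisted and mitochondrial reads, and ran MACS2 2.2.9.1 on the fragments of each library. The deposited lists give the fold enrichment of each summit over local background and its −log10 p and −log10 q, which begins at 2, and none of these was normalized between libraries. A region that was not called may still carry signal. Counts in windows and the edgeR test of the study start from reads and were not repeated.

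From the lists, intervals on chromosomes 1 to 19 were merged and regions chosen as described above. The members, gene lists and motifs were chosen with earlier results of these data known. Each interval was represented by its strongest summit, and its rank percentile was taken by −log10 p within its library (0 where no peak was called). The fragment count at a summit and its background were obtained as the pair of values that gives both scores under the Poisson test of the peak caller, which succeeded for 84.8% to 98.0% of peaks per library. Intervals for counting error were not formed, and the number of libraries limits the precision of each SD. Genes were assigned by the nearest protein-coding GENCODE M21 start within 200 kb. Motifs were matched exactly, on both strands, within 100 bp of the summit, with N for any base and SRF, MEF2 and NF-kB known by patterns of 10 positions. Named were the 10 highest-ranked regions, the 12 genes with most regions, up to 3 genes per list by their strongest region, the 10 genes with the largest promoter difference without overlap (of which 1 is not reported here), and 5 regions on each side of the threshold, and the 13 sequences were picked from these after they were seen. Libraries were compared by two-sided exact permutation tests over 84 (3 against 6) or 20 (3 against 3) assignments, with Benjamini-Hochberg adjustment. The alternatives were a −log10 q of at least 5, equal numbers of top intervals, windows reaching 200 bp from the summit, other distances, ranking by fold enrichment, leaving out each library, and a block on replicate numbers, and 1 more, the removal of every distal region called by E17.5 libraries alone, was chosen after seeing the data. On simulated data 100% of 200 planted regions, 2900 planted motifs and 200 shifted promoters were recovered. Regions and motifs were planted as exact matches and the promoter shift was large against its noise. Recovery therefore checks the code and does not measure power for differences of the size seen here. Python 3.11.15, numpy 2.4.6, pandas 2.3.3, scipy 1.17.1 and matplotlib 3.10.9 were used.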

Additional observations from a re-analysis of the deposited data

Results flagged for a closer look

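Chromosome X lies outside the choice of regions and was read separately. On it 68 of 2813 distal regions (2.42%) were called by all 3 E17.5 libraries and by none of the 6 others, beside 122 (4.34%) called by the E11.5 libraries alone and 84 (2.99%) by the EPDC libraries alone. They are listed because they are signal in data that no comparison above used. The strongest by their lowest −log10 q lay 4.26 kb from *Kif4* (38.3), a mitotic kinesin gene, 46.9 kb from *Plac1* (30.2) and 6.45 kb from *Vegfd* (29.7), a lymphangiogenic growth factor.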

How the results depend on the processing

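The number of E17.5-only regions was 3818 with a −log10 q of at least 5 in every list (3137 shared with the 4000), 5972 with equal numbers of top intervals (3373 shared), 3427 beyond 3 kb from a start and 5986 when EPDC libraries were not required to lack the region, and with 1 library left out it was 4021 to 6437, the highest without E17.5 replicate 1. The median rank percentile stayed between 32.1 and 40.4 when 1 library was left out. The AP-1 share of E17.5-only regions was 36.1% in windows reaching 200 bp from the summit, 41.2% in whole regions and 33.2% with the stricter q, which is 1.54, 1.41 and 1.83 times the share of all distal regions treated alike. Of 29 motifs, 14 passed with equal numbers of top peaks (12 shared with the 14 of the report), with the stricter q (13 shared) and without any region called by E17.5 libraries alone (12 shared), but 7 (6 shared) in the wider windows, where the ZEB/SNAI and TBX20 differences were 4.25 and 0.367 points (adjusted exact permutation p = 0.0628 each). The cause was not tested. With 1 library left out 0 to 0 motifs passed by the adjusted exact permutation test and 7 to 13 had an unadjusted p under 0.05, and the smallest exact permutation p was then 0.0179, or 0.0357 without an E17.5 library. The difference of the WT1/EGR motif turned from 0.00867 to −0.196 points with equal numbers of top peaks.

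For promoters of genes beside E17.5-only regions, 669 were higher and 374 lower with equal numbers of top intervals, and with 1 library left out 306 to 488 were higher (12.1% to 19.3%, with 11.9% to 18.5% of all genes), the highest without E17.5 replicate 1, and 773 to 925 lower (30.5% to 36.5%, with 29.6% to 35.7% of all genes). Of regions called in all 9 libraries, 1376 near E17.5-only regions were higher with equal numbers of top intervals, 1662 were higher (13.8%, with 11.7% of all such regions) and 5447 lower (45.4%, with 48.8%) of the 12005 within 100 kb, and with 1 library left out 719 to 954 were higher (15.4% to 20.5%, with 12.2% to 16.4% of all) and 2076 to 2468 lower (44.6% to 53.0%, with 50.3% to 58.0% of all). Fewer libraries make non-overlap easier to reach, so the counts with 1 left out rise by construction.

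Replicate numbers are shared between the stages, but same-numbered libraries did not deviate together (r = −0.016, 0.045 and −0.039), so they do not pair the samples. With the replicate number as a block, 438 promoters were higher (17.3%, against 15.9% of all genes) and 951 lower (37.6%, against 36.8%), 916 of the regions called in all 9 libraries near E17.5-only regions were higher (19.7%, against 15.6% of all) and 2459 lower (52.8%, against 58.1%), and 0 motifs could pass, since 8 assignments allow no p below 0.25.

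The part of depth in the choice was not tested. E17.5 replicate 1 had the lowest background per position and missed the most regions, and EPDC E13.5 replicate 2, with the highest, removed 443 regions that no other list removed, against 20 and 25 for the other EPDC libraries. The E11.5 libraries did not follow this order, since replicate 1, with the highest background of the 3, removed 196 and replicates 2 and 3 removed 435 and 353.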
